A study of Mus musculus with 201 samples.

Results

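The mitochondrial ribosomal proteins are the nuclear-encoded proteins named Mrpl, of the large subunit, and Mrps, of the small subunit, of the ribosome inside mitochondria. Their genes were taken by symbol, Mrpl or Mrps followed by a number and at most 1 letter, and 76 were found in each of the 3 tables, which hold 42802 symbols for nuclei of a mouse placed in an unfamiliar environment (NE), 42790 for whole cells and 42774 for nuclei of a home-cage (HC) mouse. Mrpl33 was not analysed here. Of the 76 members, 49 belong to the large subunit and 26 to the small subunit, with Mrps30 and Mrps18a placed in the large subunit where structures put them. The last, Mrps36, is no longer counted as ribosomal, since its product belongs to the 2-oxoglutarate dehydrogenase complex. By textbook classes, 46 members have a counterpart in bacterial ribosomes and 29 are specific to mitochondria.

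The mitochondrial ribosome translates the few proteins that mitochondrial DNA encodes, all of them core subunits of oxidative phosphorylation. Its own proteins are encoded in the nucleus, translated in the cytosol and imported, so that a nucleus holds their transcripts only before export. Neurons depend on oxidative phosphorylation to restore ion gradients after firing, and dentate granule cells are known for firing sparsely. The RNAs made in mitochondria were not analysed here.

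The study sequenced RNA of single dentate granule cells and single nuclei, 201 samples in all, to compare neurons that had recently been active with neurons that had not. Whole cells came from Prox1-GFP mice, in which the Prox1 promoter drives GFP, given either the convulsant PTZ, a GABA(A) receptor antagonist (35 cells in the tables), or saline (47 cells), and were dissociated with a protease and sorted on GFP. Nuclei were isolated by Dounce homogenization from C57BL/6 mice. A mouse that had explored NE gave 48 nuclei sorted as Prox1+/Fos+ and 48 as Prox1+/Fos-, by immunostaining and here called FOS+ and FOS-, and an undisturbed HC mouse gave 23 nuclei stained for NeuN and Prox1. Whole cells and NE nuclei were amplified with Smart-seq2, the cells with template-switching oligo (TSO) at 10 µM and HC nuclei by the standard protocol of the Fluidigm C1. NE nuclei were amplified under 4 conditions, with TSO at 1 or 10 µM and ERCC spike-ins diluted 1:200 or 1:2000. Limits on total count and on genes detected left 40 FOS+ nuclei, 41 FOS- nuclei, 30 PTZ-treated and 38 saline-treated cells. All 23 HC nuclei were kept, of which 22 passed these limits. Total expected counts of these ran from 63775 to 1060516 in NE nuclei, from 107647 to 278779 in HC nuclei and from 67212 to 5129240 in cells.

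Each nucleus set came from 1 mouse and each whole-cell treatment from 1 mouse by the series text or 1 pool of mice by the methods, and the labels tie no sample to an animal. Cells of a group are therefore not replicates of its condition, no test was made, and every difference given here is between these sets of cells, with SDs that measure the spread between cells. Prox1, the granule cell transcription factor, was above TPM 1 in 33 of 40 FOS+, 34 of 41 FOS- and 14 of 23 HC nuclei and in all 30 and 38 cells. Calb1, a calcium buffer of mature granule cells, was above TPM 1 in all 40 and 41 NE nuclei. Arc, an activity-induced gene, was detected in 31 of 40 FOS+ and 1 of 41 FOS- nuclei, in the direction of the sort. Fos itself was in 12 and 3 nuclei. In the whole cells Fos was detected in 26 of 30 PTZ-treated and 30 of 38 saline-treated cells, so the treatments were not separated by it. Markers of other cell types were low in most samples, with median summed TPM per list of 0 to 11.8 in FOS+ and 0 to 9.8 in FOS- nuclei. Single samples stood apart, with 3436 TPM of microglial markers in 1 FOS+ nucleus and 11579 TPM of astrocyte markers in 1 PTZ-treated cell. Interneuron markers had a median sum of 123 TPM in PTZ-treated and 156 TPM in saline-treated cells. Their part in the results was not tested.

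Promoters of 67 members were matched by symbol to RefSeq windows of GRCm38.p6 that run from 250 bases before to 50 bases after the start. The core of the NRF1 motif, GCATGCGC, was found on either strand in 7 of 67 members (10.4%) and in 2.71% of all 32851 windows. NRF1 is a known activator of nuclear genes for mitochondrial proteins. The ETS motif CCGGAAGT, bound by factors such as GABP, was in 11 members (16.4%) and in 3.89% of all windows, and the YY1 motif AAGATGGC in 12 members (17.9%) and in 2.75%. The SP1 motif GGGCGG was in 34 members (50.7%) and in 35.7% of all windows. The 2 motifs of activity-dependent factors were in few members. The CRE, TGACGTCA, was in 2 members (2.99%; 1.79% of all windows). The AP-1 pattern, TGANTCA, was also in 2 (2.99%; 7.81% of all windows). It was searched with any middle base, whereas the site that FOS binds with JUN has C or G there. Matches describe these letters and are no evidence of binding. Stretches were taken only from the bases before the start, and only for members with a single window. Shown are the 4 NRF1, ETS and AP-1 matches among these whose stretch lies outside annotated exons. Each is written 5′ to 3′ on the strand of the gene, with the motif in capitals. The frequent SP1 matches are not printed.
Mrps22, ETS, chr9:98601680-98601730, minus strand: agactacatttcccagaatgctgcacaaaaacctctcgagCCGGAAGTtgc
Mrps25, AP-1, chr6:92184168-92184254, minus strand: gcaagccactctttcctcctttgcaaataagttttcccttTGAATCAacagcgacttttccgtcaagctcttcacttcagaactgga
Mrpl10, NRF1, chr11:97041408-97041495, plus strand: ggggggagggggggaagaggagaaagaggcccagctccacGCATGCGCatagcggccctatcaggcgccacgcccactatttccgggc
Mrpl43, ETS, chr19:45006443-45006494, minus strand: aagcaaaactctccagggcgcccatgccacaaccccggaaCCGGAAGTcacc
The ETS match of Mrps22 begins 11 bases before the start and that of Mrpl43 12 bases before it. The NRF1 match of Mrpl10 lies 134 bases before the start and the AP-1 match of Mrps25 191 bases before it. The middle base of the Mrps25 match is A, not C or G.

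FOS+ nuclei had less RNA of the mitochondrial ribosomal proteins in relation to all other RNA than FOS- nuclei of the same mouse. TPM (a transcript's abundance scaled to a fixed total per cell) is a length-normalized share of a cell's RNA, so values can be summed over genes. Summed over the 76 members, FOS+ nuclei had 2960 ± 1430 TPM (SD, n = 40 nuclei; lowest 1022, median 2681, highest 6996). FOS- nuclei had 4938 ± 1868 TPM (SD, n = 41 nuclei; lowest 1800, median 4983, highest 11743), 1.67-fold more. The ranges overlapped, but 37 of 40 FOS+ nuclei lay below the median of the FOS- nuclei, and 38 of 41 FOS- nuclei lay above the median of the FOS+ nuclei. The sum of the granule cell markers Prox1, Rbfox3 and Calb1 was lower in FOS+ nuclei by a like ratio. Its mean was 5023 TPM (1108 to 16215) against 8381 TPM (1398 to 25178). Of these 3 markers, 2 had a ratio of means below 1 and 1 above, and 0 were at least 2-fold lower. Their median log2 ratio was -0.48. Interneuron markers had a mean sum of 189 TPM (0 to 1360) in FOS+ and 74.7 TPM (0 to 1313) in FOS- nuclei, mostly Gad1. Gad1 and Gad2 were both at least 2-fold higher in FOS+ nuclei, and Slc32a1 was above TPM 1 in 0 of 40 and 2 of 41. Mean sums of the other lists were also higher in FOS+ nuclei. The ratio was 1.47 for oligodendrocyte, 1.63 for astrocyte, 1.67 for endothelial and 10.5 for microglial markers, the last with 3436 TPM in 1 nucleus. The part of these marker lists in the result was not tested. HC nuclei, amplified on another platform, had 4204 ± 2790 TPM (SD, n = 23; lowest 596, median 3655, highest 9442). This range covers all FOS+ nuclei and all FOS- nuclei but the highest.

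**Figure D1:**
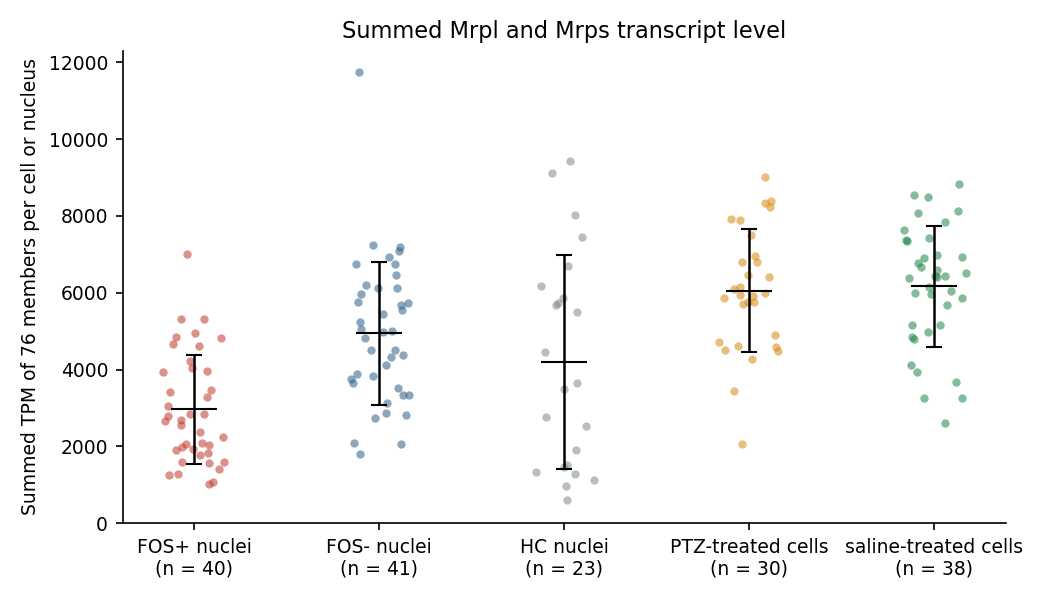
Summed TPM of the 76 members on the vertical axis, for each nucleus or cell (points) of the 5 groups, with mean and SD between cells (bar and whiskers). FOS+ nuclei, with a mean of 2960, sit below FOS- nuclei, with a mean of 4938, while PTZ-treated and saline-treated cells, with means of 6052 and 6164, overlap.

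The number of members detected did not differ in the same way. A nucleus had 25.3 ± 7.1 members above TPM 1 in the FOS+ group (SD, n = 40) and 26.3 ± 8.7 in the FOS- group (SD, n = 41). The mean share of nuclei with a member was 33.3% and 34.6%. Members at over 100 TPM numbered 6.63 ± 3.91 per FOS+ nucleus and 9.0 ± 4.06 per FOS- nucleus. FOS- nuclei thus held more members at a high level, with a similar number detected at all. Of the detections, 47.9% in FOS+ and 44.02% in FOS- nuclei rested on fewer than 5 counts, against 9.69% in PTZ-treated and 7.07% in saline-treated cells.

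The lower summed level in FOS+ nuclei was found within each of the 4 amplification conditions, at very different sizes. At 1 µM TSO and 1:2000 ERCC, the mean was 2392 TPM in 8 FOS+ and 5751 TPM in 10 FOS- nuclei, 2.40-fold more. At 1 µM and 1:200 it was 2621 and 4947 TPM (10 and 10 nuclei), and at 10 µM and 1:2000 it was 2733 and 4691 TPM (11 and 11 nuclei). At 10 µM and 1:200 the groups were close, with 3908 ± 1701 TPM in 11 FOS+ and 4390 ± 1365 TPM in 10 FOS- nuclei, a 1.12-fold difference that is smaller than either SD. The number of members detected was not lower in FOS+ nuclei of every condition. At 1 µM and 1:200 it averaged 24.3 in FOS+ against 17.7 in FOS- nuclei, and at 10 µM and 1:2000 it averaged 28.4 against 34.5. The median log2 ratio over members was also above 0 at 1 µM and 1:200, at 0.33. Within each group the number of members detected went with the number of genes detected. Pearson's r was 0.88 and Spearman's rho 0.82 over 40 FOS+ nuclei, and 0.93 and 0.90 over 41 FOS- nuclei, both measures sharing the library's depth.

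**Figure D2:**
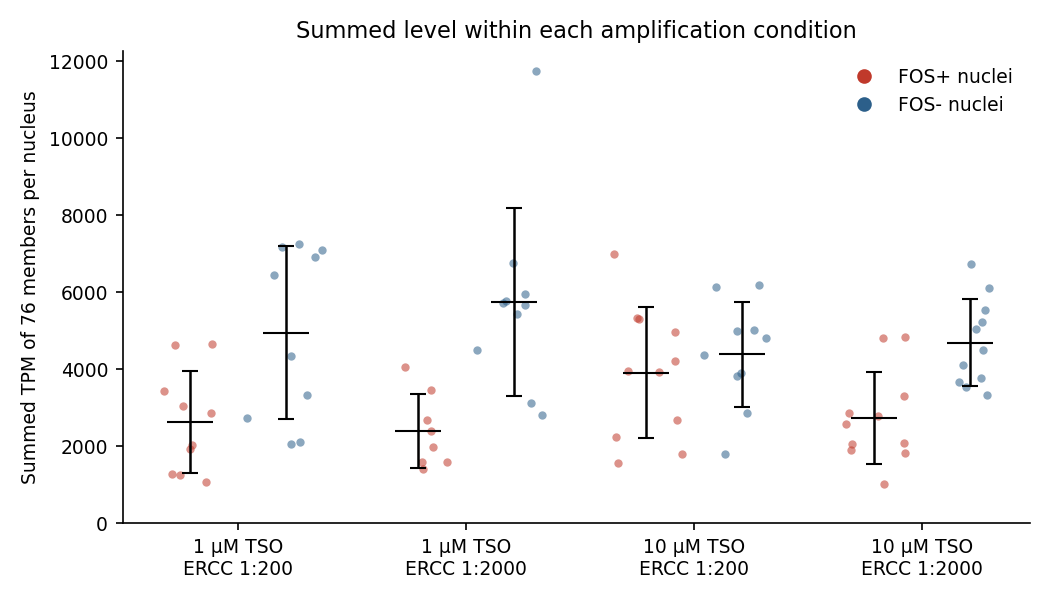
Summed TPM of the 76 members on the vertical axis, for each NE nucleus (points) within the 4 combinations of TSO concentration and ERCC dilution, with mean and SD between nuclei. The FOS+ mean lies below the FOS- mean in all 4, from 2392 against 5751 to 3908 against 4390.

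Gene by gene, 59 of the 76 members were above TPM 1 in at least 10% of the nuclei of both groups together, as were 13751 genes of the table. The ratio of mean TPM, FOS+ over FOS-, had a median of -0.54 on the log2 scale over these 59, and of -0.24 over the 13751 genes. The ratio was below 1 for 47 of the 59 (79.7%), against 59.4% of all genes. In FOS+ nuclei 19 members (32.2%) had a mean at least 2-fold lower, as had 24.9% of all genes, and 4 (6.78%) a mean at least 2-fold higher, as had 14.3%. Detection was lower by at least 20 percentage points for 2 members (3.39%), Mrps9 and Mrps25, against 4.41% of all genes, and higher for Mrpl27 alone (1.69%), against 5.13%. Only 5 members (8.47%) had a lower mean in all 4 conditions, Mrpl3, Mrpl17, Mrpl41, Mrpl45 and Mrps25, and none a higher one, against 12.2% and 6.81% of all genes. Mrpl3, Mrpl17, Mrpl45 and Mrps9 are named for these counts, after their values were seen.

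A few members made up much of the difference in the sum. Mrpl41, a mitochondria-specific protein of the large subunit, accounted for 21.96% of it, and Mrpl30, Mrps5, Mrpl48 and Mrpl53 brought this to 51.9%. The share of Mrpl30 rests mostly on 1 FOS- nucleus, without which its difference in mean TPM was 62.6 in place of 181, and its median was 0 in both groups. Without the highest FOS- nucleus of each, the difference was 356 in place of 434 TPM for Mrpl41, 89.01 in place of 160 for Mrps5, 106 in place of 136 for Mrpl48 and 52.3 in place of 114 for Mrpl53. Of the 31-base runs of Mrpl53, 84.4% also occur in Gm42688, whose exons overlap it on the same strand. Most reads of Mrpl53 can therefore be shared with that gene. Mrpl41 (chromosome 2, 24974117 to 24975098, minus strand, GRCm38) ranged from 0 to 2749 TPM in FOS+ nuclei, with a median of 0, and from 0 to 3854 TPM in FOS- nuclei, with a median of 170. It was detected in 18 of 40 FOS+ nuclei (45%, 95% exact binomial interval 29.3 to 61.5%) and 23 of 41 FOS- nuclei (56.1%, 39.7 to 71.5%), intervals that overlap. Its mean was 265 ± 547 TPM against 700 ± 961 TPM (SD), 2.64-fold higher in FOS- nuclei and higher there in all 4 conditions. Of its 31-base runs, 21.1% also occur in Gm6434, so its reads can be shared with that gene. Such intervals, and those for counts, cover counting error only.

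Mrpl48, a large-subunit protein encoded on chromosome 7 (100545751 to 100608301, minus strand), was, with Mrpl13, the most widely detected member of the nuclei. It was detected in 39 of 40 FOS+, 41 of 41 FOS- and 23 of 23 HC nuclei. Its levels ran from 0 to 1453 TPM with a median of 359 in FOS+ nuclei, and from 31.3 to 1787 TPM with a median of 545 in FOS- nuclei. HC nuclei had 215 to 2199 TPM with a median of 754. Cells were lower, with medians of 106 TPM in PTZ-treated and 126 TPM in saline-treated cells. The exons of Mrpl48 overlap those of Rab6a on the opposite strand, and 16.6% of its 31-base runs occur in another gene. Without Mrpl41 and Mrpl48, the summed level was still 1.62-fold higher in FOS- nuclei, at 3664 ± 1608 against 2257 ± 1320 TPM (SD).

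The members with the lowest ratios were carried by few nuclei. Mrps22, a mitochondria-specific small-subunit protein, had a mean of 3.30 TPM in FOS+ and 58.2 TPM in FOS- nuclei, a log2 ratio of -4.14. It was detected in similar numbers, 20 of 40 and 22 of 41, but reached 1240 TPM in 1 FOS- nucleus, which held 51.9% of the group's sum, and 43.04 TPM at most in FOS+ nuclei. Without that nucleus the log2 ratio was -3.12. Mrpl30, a bacterial-type large-subunit protein, was detected in 14 of 40 and 15 of 41 nuclei, with a highest value of 282 TPM in FOS+ and 4949 TPM in FOS- nuclei. Its log2 ratio of -3.82 was -2.46 without the highest nucleus. Mrps35, of the small subunit, was detected in 21 of 40 FOS+ and 19 of 41 FOS- nuclei, and its log2 ratio moved from -3.50 to -1.36 without the FOS- nucleus at 1829 TPM. Mrpl19, of the large subunit, was detected in 25 nuclei of each group and moved from -2.36 to -1.49. In these 4 the number of nuclei with the transcript was alike and the difference lay in the highest values.

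Mrps25, a small-subunit protein, differed in detection as well. It was above TPM 1 in 4 of 40 FOS+ nuclei (10%, 95% exact binomial interval 2.79 to 23.7%) and in 13 of 41 FOS- nuclei (31.7%, 18.1 to 48.1%). Means were 5.13 and 36.5 TPM, a log2 ratio of -2.83, or -1.76 without the highest FOS- nucleus, and the FOS+ mean was lower in all 4 conditions. The gene (chromosome 6, 92169525 to 92184033, minus strand) shares 68.9% of its 31-base runs with Nr2c2, whose exons overlap it on the opposite strand, and reads without strand cannot be told apart between them. Mrps9, of the small subunit, was detected in 6 of 40 and 19 of 41 nuclei, with means of 30.9 and 84.7 TPM. Of the 19 members at least 2-fold lower, 9 remained so without the highest FOS- nucleus: Mrpl3, Mrpl19, Mrpl30, Mrpl41, Mrps2, Mrps22, Mrps24, Mrps25 and Mrps35. The other 10 were Mrpl2, Mrpl17, Mrpl21, Mrpl49, Mrpl51, Mrpl53, Mrps5, Mrps7, Mrps9 and Mrps34, of which Mrpl2, Mrpl49 and Mrps34 turned direction. Over all 59 members, without the highest nucleus of the higher group, 12 were at least 2-fold lower in FOS+ nuclei and 6 at least 2-fold higher. Only Mrpl12 of these 6 had been so with all nuclei. Mrps14 moved from -0.84 to 2.48, and in the other direction Mrpl35 moved from 0.05 to -1.31. Leaving out the highest nucleus pulls each ratio toward the other group by construction.

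The members with the highest ratios were Mrpl12, Mrps18a, Mrps12, Mrps10 and Mrpl27. Mrpl12, which forms the stalk of the large subunit, was detected in 14 of 40 FOS+ nuclei, up to 678 TPM, and in 7 of 41 FOS- nuclei, up to 433 TPM. Its means of 70.6 and 20.8 TPM gave a log2 ratio of 1.76, and of 1.40 without the highest FOS+ nucleus, the only one of the 4 members past 2-fold to stay past it. Mrps12, of the decoding site of the small subunit, was detected in 6 of 40 and 4 of 41 nuclei, with a log2 ratio of 1.41 that became 0.66 without 1 nucleus. Mrps10, of the small subunit, went from 1.00 to 0.37 in the same way. Mrpl27, a bacterial-type large-subunit protein, was detected in 32 of 40 FOS+ and 23 of 41 FOS- nuclei, with medians of 23.96 and 8.03 TPM and a log2 ratio of 0.81. Of its 31-base runs, 38.9% occur in another gene.

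**Figure D3:**
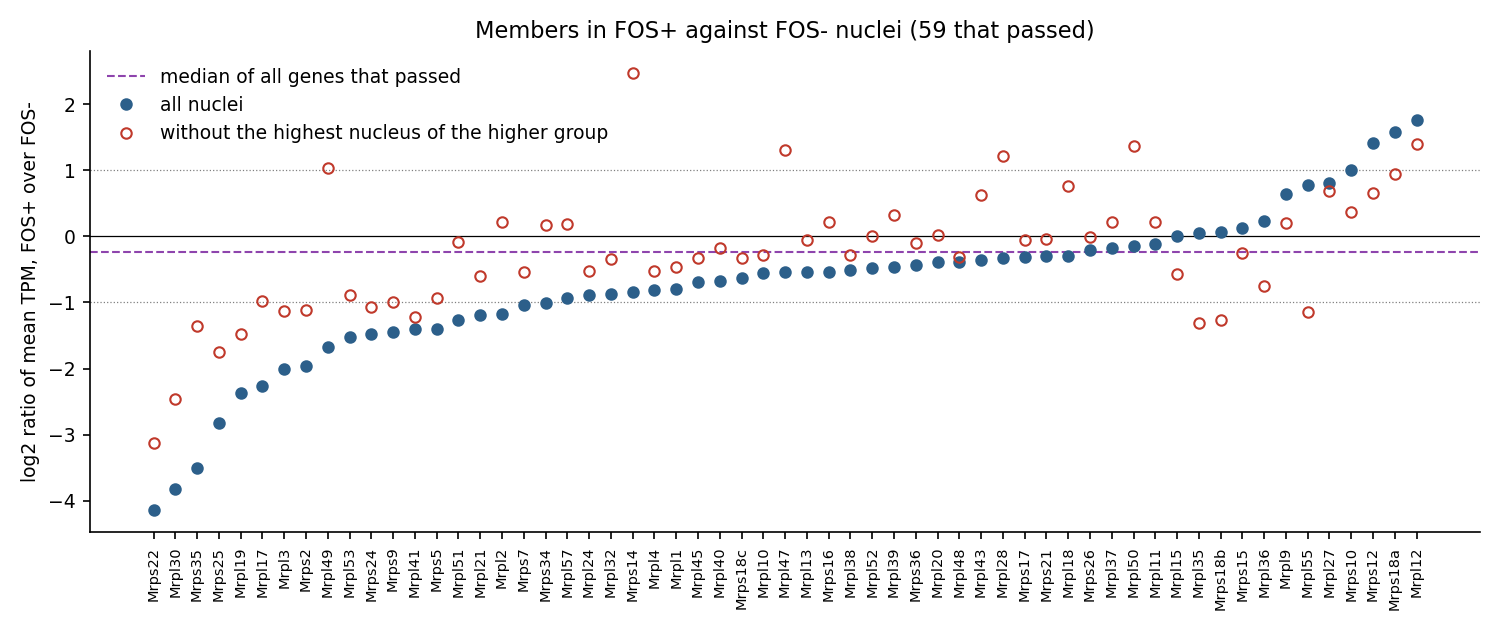
Log2 ratio of mean TPM, FOS+ over FOS-, on the vertical axis for the 59 members that passed (filled points), and the same without the highest nucleus of the group with the higher mean (open points). Dotted lines mark 2-fold and the dashed line the median of all genes, -0.24. Of the 59 filled points 47 are below 0, and many open points lie far from theirs, among them Mrps35, which moves from -3.50 to -1.36.

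The 3 paralogs of the bacterial S18 protein had separate patterns. Mrps18a was detected in 17 of 40 FOS+ and 15 of 41 FOS- nuclei, with means of 43.5 and 14.5 TPM and a log2 ratio of 1.59 (0.94 without the highest nucleus). Mrps18b was rarely detected in nuclei, in 4 of 40, 5 of 41 and 2 of 23, but in 13 of 30 PTZ-treated and 18 of 38 saline-treated cells. Mrps18c was found in 32 of 40 FOS+ and 35 of 41 FOS- nuclei and in 24 of 30 and 28 of 38 cells, but in 6 of 23 HC nuclei. Mean levels of the 3 were close in saline-treated cells, at 82.5, 80.4 and 86.8 TPM for Mrps18a, Mrps18b and Mrps18c. Of the 31-base runs of Mrps18b 31.6%, and of Mrps18c 34.5%, occur in overlapping or similar genes, and 0.163% of those of Mrps18a.

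Both subunits were lower in FOS+ nuclei by similar amounts. The large subunit summed to 1977 ± 1090 TPM in FOS+ and 3295 ± 1529 TPM in FOS- nuclei, and the small subunit to 920 ± 763 and 1559 ± 926 TPM (SD, n = 40 and 41). Of the passing members, 31 of 39 in the large and 15 of 19 in the small subunit had a ratio below 1. Among the mitochondria-specific members 19 of 20 had a ratio below 1, with 8 at least 2-fold lower and 0 at least 2-fold higher. Among the bacterial-type members it was 27 of 38, with 11 lower and 4 higher. Of all genes, 59.4% had a ratio below 1, 24.9% were at least 2-fold lower and 14.3% at least 2-fold higher. Whether the classes differ was not tested. The mean of the bacterial-type members, 34.6 TPM per member in FOS+ and 54.0 TPM in FOS- nuclei, was below that of the mitochondria-specific members, 45.05 and 81.7 TPM, which include Mrpl41 and Mrpl48. The median of the member means ran the other way, at 31.04 and 43.4 TPM for bacterial-type against 15.2 and 30.7 TPM for mitochondria-specific members, as did the mean share of nuclei with a member, 35.7% and 36.6% against 29.3% and 31.1%.

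Mitochondrial translation factors and aminoacyl-tRNA synthetases were mostly lower in FOS+ nuclei, assembly factors were split, and ribosomal proteins of the cytosol were nearly level. The 84 cytosolic ribosomal proteins summed to 11801 ± 4576 TPM in FOS+ and 12111 ± 5742 TPM in FOS- nuclei, a 1.03-fold difference, and the 83 nuclear-encoded oxidative phosphorylation subunits to 11203 ± 6872 and 12773 ± 6176 TPM, 1.14-fold (SD, n = 40 and 41). The 14 genes listed as mitochondrial translation factors summed to 485 ± 638 and 1169 ± 811 TPM, 2.41-fold more in FOS- nuclei. This list also holds the RNA-binding proteins Lrpprc and Slirp, the translational activator Taco1 and the membrane insertase Oxa1l. Slirp had the largest difference of the list, with means of 149 TPM in FOS+ and 380 TPM in FOS- nuclei. Means of Lrpprc were 55.6 and 107 TPM, of Oxa1l 6.62 and 26.2 TPM, and of Taco1 7.97 and 0 TPM. Of 11 that passed, 7 were at least 2-fold lower in FOS+ nuclei and 0 higher, where 24.9% of all genes were lower and 14.3% higher, a background that holds for each list. They include Gfm1, an elongation factor, detected in 4 of 40 and 9 of 41 nuclei with means of 0.704 and 28.1 TPM, and Mrrf, the ribosome recycling factor, detected in 14 and 16 nuclei with 9.62 and 47.4 TPM. Tsfm, which recharges the elongation factor Tu, had means of 11.3 and 72.7 TPM but was detected in 17 of 40 FOS+ and 15 of 41 FOS- nuclei. Single FOS- nuclei held 49.3% of the group's sum for Gfm1 and 40.8% for Tsfm. Guf1, which back-translocates stalled ribosomes, had means of 38.8 and 151 TPM. Among Gfm1, Mrrf, Tsfm and Guf1, the most widely detected was Guf1, in 25 of 40 and 32 of 41 nuclei.

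Mitochondrial aminoacyl-tRNA synthetases, which charge the transfer RNAs, summed to 391 ± 462 TPM in FOS+ and 680 ± 697 TPM in FOS- nuclei, with 5 of 9 passing genes at least 2-fold lower and 0 higher, and 2 of 9 ratios above 1. Hars2, for histidine, had means of 17.7 and 165 TPM and was detected in 7 of 40 and 16 of 41 nuclei, with 49.3% of the FOS- sum in 1 nucleus, and Rars2, for arginine, had 35.6 and 145 TPM in 9 and 19 nuclei. Lars2, for leucine, named after its values were seen, was at 239 and 212 TPM. Ribosome assembly factors (23 genes) summed to 558 ± 543 and 726 ± 540 TPM, with 4 of 12 lower and 1 higher. Their median log2 ratio was -0.11, with 6 genes above and 6 below 0, against -0.24 for all genes. Dhx30, an RNA helicase of assembly, was at 10.3 and 56.3 TPM, and Nsun4, which methylates mitochondrial ribosomal RNA, was the higher one, at 64.8 and 26.5 TPM, with 50.8% of the FOS+ sum in 1 nucleus. Of the 6 other mitoribosome proteins, Ict1, a release factor built into the large subunit, was at least 2-fold lower, at 1.02 and 94.4 TPM, detected in 1 of 40 and 10 of 41 nuclei. Of the 5 that passed, 2 had ratios above 1, Aurkaip1 at a log2 of 0.43 and Gadd45gip1 at 0.49, both named after their values were seen.

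**Figure D4:**
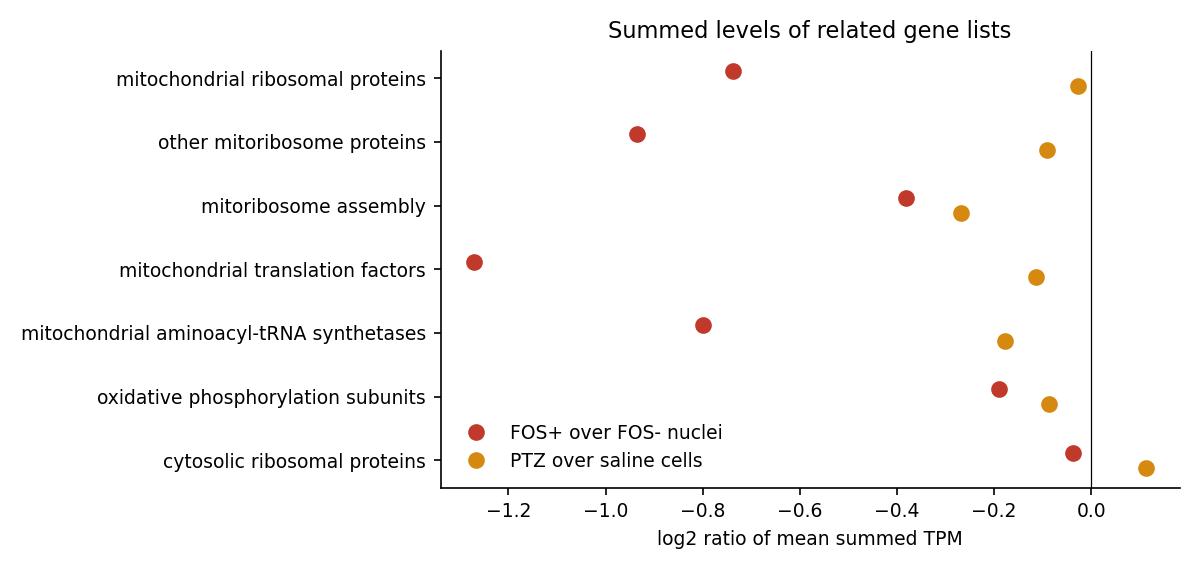
Log2 ratio of mean summed TPM on the horizontal axis for 7 gene lists, in FOS+ over FOS- nuclei and in PTZ-treated over saline-treated cells. In nuclei the mitochondrial ribosomal proteins lie at -0.74 and translation factors at -1.27, with cytosolic ribosomal proteins at -0.04. In cells all 7 lie between -0.27 and 0.11. The list of translation factors includes Lrpprc, Slirp, Taco1 and Oxa1l.

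The summed level of PTZ-treated and saline-treated cells differed by less than the spread between cells. It was 6052 ± 1595 TPM in PTZ-treated cells (SD, n = 30; lowest 2065, median 5971, highest 9006) and 6164 ± 1565 TPM in saline-treated cells (SD, n = 38; lowest 2597, median 6431, highest 8820), 1.02-fold apart. The ranges overlapped almost wholly, and 19 of 30 PTZ-treated cells lay below the saline median. All 76 members and 12630 genes passed the 10% limit, and the median log2 ratio was -0.07 for members and -0.08 for all genes. At least 2-fold higher were 2 members (2.63%), Mrpl9 and Mrps6, against 12% of all genes, and at least 2-fold lower were 3 (3.95%), Mrpl16, Mrpl35 and Mrpl46, against 13.7%. The sample titles carry 1 suffix for all PTZ-treated and another for all saline-treated cells, so whatever it marks cannot be told apart from treatment.

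Fewer members were detected per PTZ-treated cell, 45.4 ± 17.9 (SD, n = 30; lowest 18, highest 76) against 49.5 ± 13.8 (SD, n = 38; lowest 19, highest 70), a difference smaller than either SD. Detection was lower by at least 20 percentage points for 7 members (9.21%), against 5% of all genes, and higher for 0, against 3.52%. The 7 were Mrpl16, Mrpl18, Mrpl20, Mrpl23, Mrpl35, Mrpl39 and Mrpl46, all of the large subunit, of which Mrpl18 and Mrpl23 are named after their values were seen. Mrpl35 was detected in 18 of 30 (60%, 95% exact binomial interval 40.6 to 77.3%) and 36 of 38 cells (94.7%, 82.3 to 99.4%), with medians of 2.04 and 7.78 TPM and a log2 ratio of -1.22. Mrpl20, the most abundant member of saline-treated cells, was detected in 22 of 30 and 37 of 38 cells, with means of 144 and 239 TPM. Mrpl39 was detected in 10 of 30 and 26 of 38 cells, Mrpl46 in 12 and 23, and Mrpl16 in 11 and 22. Within the cells the number of members detected went with the number of genes detected, with Pearson's r of 0.89 and Spearman's rho of 0.92 over 30 PTZ-treated cells and 0.88 and 0.85 over 38 saline-treated cells (0.89 and 0.85 for r without the 2 cells farthest from the median), both measures sharing the library's depth.

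Mrps6, of the small subunit, was detected in 13 of 30 PTZ-treated cells, up to 295 TPM, and in 10 of 38 saline-treated cells, up to 232 TPM, with means of 54.1 and 16.7 TPM and a log2 ratio of 1.69. Of its 31-base runs, 18.4% occur in Gm49711. Mrpl9, of the large subunit, was detected in 22 cells of each group, with medians of 93.3 and 1.88 TPM and means of 139 ± 237 and 50.3 ± 79.9 TPM (SD). Its log2 ratio of 1.47 was 1.03 without the cell at 1198 TPM. The next highest ratios, 0.85 for Mrpl38, 0.72 for Mrpl34 and 0.69 for Mrps21, came with means of 132, 81.6 and 211 TPM in PTZ-treated cells. Mrps17, next after Mrpl20 in level in saline-treated cells, had means of 126 ± 174 and 230 ± 251 TPM (SD). The ranges of all these members overlapped between treatments.

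Saline-treated cells and FOS- nuclei were set side by side for the distribution of members between compartments. Mouse strain, treatment, dissociation, reads and compartment cannot be told apart. The expression of activity-induced genes differed as well, with a mean sum over Fos, Arc and Egr1 of 3964 TPM in cells and 3.42 TPM in nuclei. Cells had 49.5 members above TPM 1 and FOS- nuclei 26.3, and the mean share of samples with a member was 65.1% against 34.6%. Detection was higher in cells by at least 20 percentage points for 51 members (67.1%), against 30.4% of all 14597 genes that passed, and lower for 2 (2.63%), Mrpl45 and Mrps35, against 26.4%. The summed level differed much less, at 6164 and 4938 TPM, 1.25-fold. In a median nucleus the 5 highest members held 74.4% of the sum in FOS-, 84.5% in FOS+ and 95.6% in HC nuclei, and in a median cell 26.8% in saline-treated and 32.6% in PTZ-treated cells. Nuclei thus had their level in few members each, and cells in many.

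**Figure D5:**
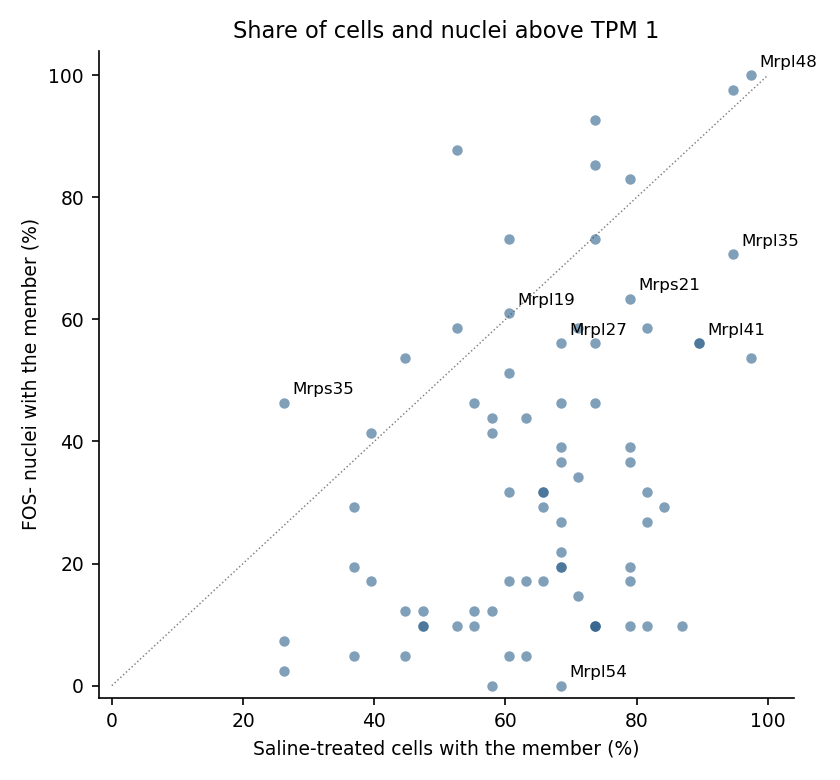
Share of saline-treated cells (horizontal axis) and of FOS- nuclei (vertical axis) with each of the 76 members above TPM 1, in percent, with a line of equal shares. Most points lie below the line, and Mrpl48 is at 97.4% of cells and 100% of nuclei, while Mrpl54 is at 68.4% and 0%.

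In level, 33 members (43.4%) were at least 2-fold higher in cells, against 24% of all genes, and 4 (5.26%) at least 2-fold lower, against 43.1%. The median log2 ratio of cells over nuclei was 0.69 for members, or 0.71 with the members at 0 in nuclei set to their bound, and -0.41 for all genes. Cytosolic ribosomal proteins had a median of 1.56 and oxidative phosphorylation subunits of 1.42. The 4 that were higher in nuclei were Mrpl48 at -2.02, Mrpl41 at -1.71, Mrps5 at -1.43 and Mrpl47 at -1.32. Mrpl47, of the large subunit, was so because of 1 nucleus at 1277 TPM, without which the log2 ratio was 0.53. Mrps5, a bacterial-type small-subunit protein, went to -0.96 without its highest nucleus, and Mrpl48 to -1.94 and Mrpl41 to -1.54. Next came Mrpl32, of the large subunit, at -0.95, with means of 65.5 TPM in cells and 126 TPM in nuclei. The highest means in FOS- nuclei belonged to Mrpl41, Mrpl48, Mrps5, Mrps26 at 199 TPM and Mrpl30 at 195 TPM, and in saline-treated cells to Mrpl20, Mrps17, Mrpl41, Mrpl30 at 195 TPM and Mrps26 at 169 TPM.

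At the other end, Mrpl16 and Mrpl54, both of the large subunit, were above TPM 1 in 0 of 41 FOS- nuclei, which allows a share of up to 8.60% by the exact binomial interval, and in 22 and 26 of 38 saline-treated cells. Counted over the group, they were at least 154-fold and at least 116-fold higher in cells, against a floor of 3 counts in all FOS- nuclei. In FOS+ nuclei they were detected in 2 and 4 of 40. The highest finite log2 ratios were 4.37 for Mrpl44, 3.801 for Mrps30, 3.41 for Mrpl46, 3.16 for Mrpl14 and 2.91 for Mrps34. Mrps30, which sits in the large subunit, was detected in 14 of 38 cells and 2 of 41 nuclei, and Mrpl14, at the subunit interface, in 24 and 2. Mrpl44 and Mrps27 were above TPM 1 in 0 of 40 FOS+ nuclei, which allows a share of up to 8.81%, and in 1 and 7 of 41 FOS- nuclei. Of the 31-base runs of Mrps34, 73.8% occur in another gene, chiefly Mapk8ip3.

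HC nuclei had the fewest genes of any kind above TPM 1, with a mean of 3237 against 6185 in FOS+ and 6281 in FOS- nuclei. They also had the fewest members, 13.9 ± 3.1 per nucleus (SD, n = 23). Of the 76 members, 18 were above TPM 1 in 0 of 23. These were Mrpl2, Mrpl12, Mrpl14, Mrpl16, Mrpl21, Mrpl22, Mrpl28, Mrpl45, Mrpl46, Mrpl49, Mrpl52, Mrps2, Mrps6, Mrps7, Mrps16, Mrps28, Mrps31 and Mrps35. For these, 0 of 23 allows a share of up to 14.8%, and the share of all genes at 0 of 23 is not given here. In contrast, Mrpl13, Mrpl35, Mrpl48 and Mrps26 were above TPM 1 in all 23. Mrpl13, a large-subunit protein, was also in 40 of 40 FOS+ and 40 of 41 FOS- nuclei, with medians of 23.7, 22.4 and 31.97 TPM in FOS+, FOS- and HC nuclei. Mrps26 was in all HC nuclei at a median of 10.8 TPM, with at least 10 reads in 2 of 23. Member levels were ordered most alike between the 2 whole-cell treatments, at a Spearman's rho of 0.84 over the 76 members, then in FOS+ and FOS- nuclei with 0.68, saline-treated cells and FOS- nuclei with 0.50 and HC and FOS- nuclei with 0.41. Members are not independent, and the coefficients describe these samples.

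Across cells the summed level went with that of oxidative phosphorylation in whole cells, with Pearson's r of 0.74 and Spearman's rho of 0.76 over 30 PTZ-treated cells and 0.71 and 0.65 over 38 saline-treated cells (r of 0.81 and 0.64 without the 2 cells farthest from the median). In nuclei r was 0.05 over 40 FOS+, -0.15 over 41 FOS- and -0.22 over 23 HC nuclei. Spearman's rho was 0.25, -0.19 and -0.10 in the same order. Without the 2 nuclei farthest from the median, r was 0.19, -0.31 and -0.08. Both sums come from the same library and share its total. The genes themselves are short, with a median span of 7853.5 bases and a median longest transcript of 1806.5 bases over 76 members in GENCODE vM21, against 17403 and 2882 bases over 21951 protein-coding genes. They lie on 17 chromosomes, with 10 on chromosome 11 and 8 on chromosome 17. Exons of 31 members overlap those of another gene, 7 on the same strand, and 13 members share over 20% of their 31-base runs.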

How the data were processed

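The deposited files hold expected counts and TPM values for each cell or nucleus. Per the labels and the study's methods, the authors trimmed reads, aligned them to mm10 with RSEM and Bowtie 1.0.0 using an Ensembl annotation, and deposited RSEM's expected counts without normalization and its TPM, scaled within each cell. Reads were paired-end for whole cells and HC nuclei and single-end for NE nuclei, without strand. The members and gene lists were chosen with earlier results of these data known.

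Cells with a total expected count over 50000 and with genes above TPM 1 over the table's mean minus 2 SD were kept, and all 23 HC nuclei. The total count stood in for a limit on aligned reads. Means, SDs, shares with exact (Clopper-Pearson) 95% intervals and ratios of mean TPM were computed with Python 3.11.15, pandas 2.3.3, numpy 2.4.6 and scipy 1.17.1. The computation of ratios was checked on simulated counts with many more cells per group, by the median over genes. This check does not measure how reliable the ratio of a single gene is here. Genes above TPM 1 in at least 10% of the cells of both groups together were compared. A member was named if among the 5 highest or lowest ratios of a comparison or the 5 highest levels, an S18 paralog, or found in every or no cell of a group, and up to 4 genes past 2-fold in each pathway list. The study treated nuclei as replicates, whereas here a group counts as 1 sample. Members' 31-base runs were matched on both strands to all GENCODE vM21 transcripts. PCR reads are not independent molecules, and intervals cover counting error only. Of the alternatives, those on shared runs, leading members, 10 reads, left-out cells and the mean over conditions were chosen after seeing the data.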

Additional observations from a re-analysis of the deposited data

How the results depend on the processing

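Alternatives moved a value if they shifted it by over 0.25 on the log2 scale, by 5 percentage points or by 1.5 times for counts. With 1 sample per condition none is a test, and the cause of a move was not tested.

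For FOS+ against FOS- nuclei, the log2 ratio of summed levels was -0.74, and -1.27 within 1 µM TSO and 1:2000 ERCC and -0.17 within 10 µM and 1:200, with a mean of -0.78 over the 4 conditions. The median log2 ratio of -0.54 became -0.80 from pooled counts, -0.28 as a difference of mean log2(TPM + 1), 0.33 within 1 µM and 1:200, -1.44 within 1 µM and 1:2000 and -1.33 within 10 µM and 1:2000. Members at least 2-fold higher numbered 4, and 1 with all nuclei, 7 from pooled counts, 2 with a limit of 30% of nuclei, and 23, 8, 16 and 10 within the 4 conditions in the order 1 µM and 1:200, 1 µM and 1:2000, 10 µM and 1:200, 10 µM and 1:2000. Members at least 2-fold lower numbered 19, and 12 with the limit of 30%, 36 within 1 µM and 1:2000 and 36 within 10 µM and 1:2000. In the same order of conditions, 56, 61, 59 and 63 members passed, 41.1%, 13.1%, 27.1% and 15.9% of them were higher against 28.8%, 24.2%, 24% and 19.3% of all genes, and 28.6%, 59%, 40.7% and 57.1% were lower against 32.2%, 38%, 26.1% and 35.6%. The difference in mean share of nuclei with a member, -1.34 percentage points, was 8.68 within 1 µM and 1:200 and -8.13 within 10 µM and 1:2000. Leaving out each nucleus gave sums from -0.79 to -0.69, medians from -0.76 to -0.53, 3 to 5 members higher and 19 to 25 lower.

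For PTZ-treated against saline-treated cells, the log2 ratio of sums was -0.03, and 0.0158 with all cells and 0.0747 from pooled counts. The median of -0.07 became 0.0117 divided by the median of all genes and 0.12 from pooled counts. Members higher numbered 2, or 6 with all cells, and members lower 3, or 7 with all cells and 0 from pooled counts. Leaving out each cell gave sums from -0.0508 to 0.00607, medians from -0.11 to -0.01, 2 to 2 members higher and 2 to 5 lower, with 5 without PTZ-treated cell 29 or PTZ-treated cell 31.

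For saline-treated cells against FOS- nuclei, the median log2 ratio of 0.69 became 1.10 divided by the median of all genes and 1.47 against HC nuclei, and ran from 0.64 to 0.82 over left-out samples. The difference in mean share, 30.5 percentage points, was 22.2 with all samples, 42.1 at 10 reads or more, 46.8 against HC nuclei and 19.6 against FOS- nuclei of the cells' own condition. Detections resting on few reads limit all shares in nuclei.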
